A study of Mus musculus with 6 samples.

Results

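The genes described here move sterols into and out of the cells of the mouse small intestine. They were chosen by name as 8 genes: Npc1l1 and Scarb1 for uptake, Soat2 for esterification, Abcg5, Abcg8, Abca1 and Abcg1 for export, and Nr1h3, which encodes the sterol-sensing nuclear receptor LXRalpha. Probe sets that the platform annotation pairs with exactly 1 of these symbols were found for 7 of the 8 genes, 12 probe sets in all, among 18193 genes read by 34945 such probe sets. Soat2 was not analysed here. For every gene the values below are those of the probe set with the highest mean over the 6 arrays, its brightest, and further probe sets served as a check.

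Total RNA from the distal jejunum of 6 mice aged 7 months was hybridised to Affymetrix arrays, 1 array per animal. In the 3 mutants Hnf4a, a nuclear receptor gene of the gut and liver epithelium, had been deleted by a Cre recombinase driven from the villin promoter, which acts in the intestinal epithelium. The 3 controls were littermates, and the labels give all 6 mice as strain B6.129X1(FVB)-Hnf4atm1.1Gonz/J without saying whether the controls carried the Cre transgene. All 6 mice received ketamine and xylazine before they were killed. The RNA came from whole jejunal biopsies, so epithelium, immune cells, muscle and stroma were measured together, and fewer cells of a type cannot be told apart from less RNA per cell.

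Dietary and biliary sterols enter the enterocyte through NPC1L1 in the brush border. ABCG5 and ABCG8 join into 1 transporter that pumps sterols, plant sterols above all, back into the gut lumen. The remaining cholesterol is esterified by SOAT2 for chylomicrons or leaves through ABCA1 on the basolateral side as nascent high-density lipoprotein (HDL). LXRalpha, with its partner RXR, is activated by oxysterols and is known to induce Abca1, Abcg1, Abcg5 and Abcg8, whereas the SREBP-2 pathway raises sterol synthesis when cell sterol is low.

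None of the 7 measured genes passed the test over all genes (limma, Benjamini-Hochberg adjusted p under 0.05), where 0.528% of all genes did, and 4 of the 7 had an unadjusted p under 0.05, 3 of them lower and 1 higher, where 12.1% of all genes did, 6.85% lower and 5.24% higher. Npc1l1, Abcg8 and Abca1 lay lower in all 3 mutants than in all 3 controls, and Abcg1 lay higher in all 3. Abcg5, Scarb1 and Nr1h3 had overlapping groups. Over all genes, 17.1% had groups that did not overlap, 10.2% lower and 6.93% higher in the mutants. The median log2 change of the 7 genes was -0.08, beside -0.01 for all genes.

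**Figure D1:**
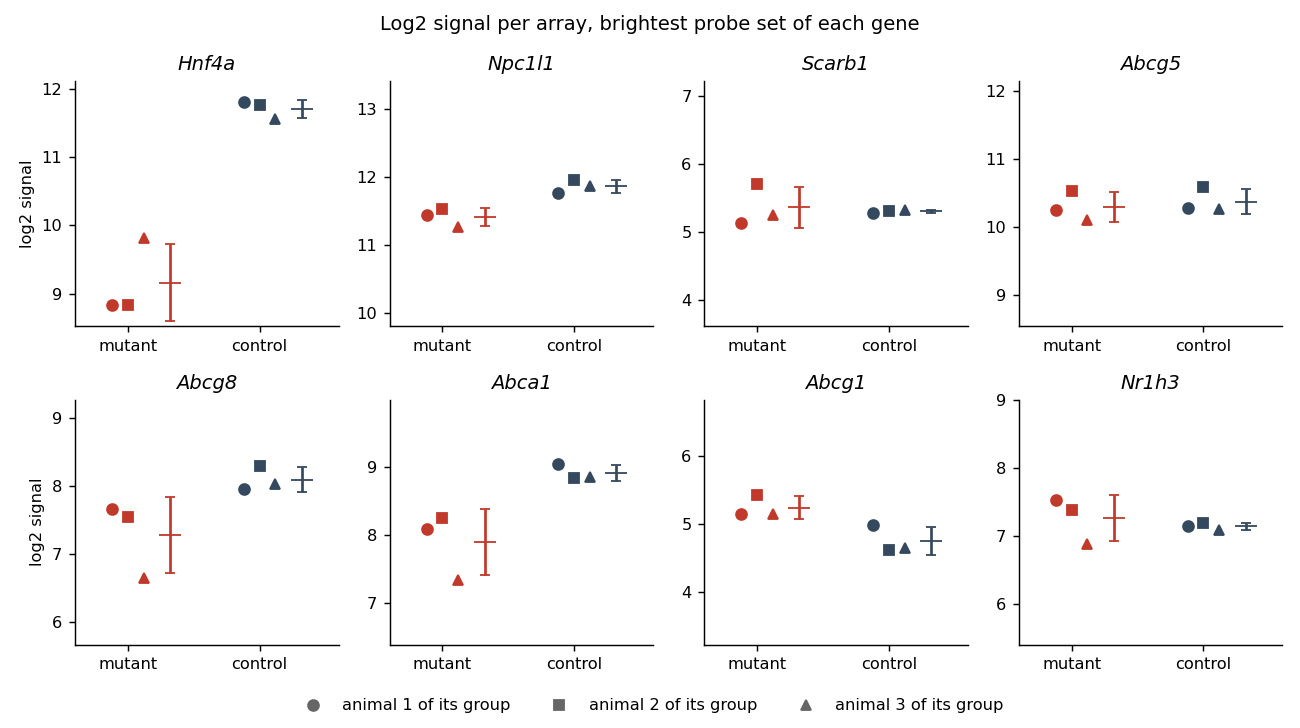
Log2 signal (vertical axis) of Hnf4a and the 7 sterol transport genes in each array, with 3 mutants in red on the left and 3 controls in dark blue on the right; marker shape gives the animal's number within its group, and the bar gives the mean ± SD (n = 3). Every panel spans the same number of log2 units. Npc1l1, Abcg8 and Abca1 sit lower in all mutants, with mutant 3 lowest, while Abcg5 overlaps between groups.

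Hnf4a was read first, as the targeted gene. Its log2 signal was 8.83, 8.83 and 9.82 in mutants 1, 2 and 3, against 11.82, 11.76 and 11.57 in controls 1, 2 and 3. The mutants lay below all controls, with a log2 change of -2.56 (95% interval -3.14 to -1.97, adjusted p = 0.00756). Changes of -3.06, -2.64 and -1.17 were read from its further probe sets. Mutant 3 had the highest signal of the mutants on the brightest probe set and on those that differed by -3.06 and -2.64. It had the lowest on the probe set that differed by -1.17, with 6.47, 6.05 and 6.03 in mutants 1, 2 and 3. The call was lost without control 2 (log2 change -2.53, adjusted p = 0.0506).

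The stretches upstream of the genes that lay lower in the mutants are shown as a description of sequence. Promoter activity and protein binding were not measured. The sequences come from RefSeq, build GRCm38.p6, whose table held windows for 5 of the 8 genes. Abcg5 and Abcg8 are divergent neighbours on chromosome 17 whose annotated starts lie 110 bases apart, so 1 intergenic stretch serves both, at chr17:84683012-84683120 on the plus strand, read toward Abcg8. RefSeq also gives a further Abcg8 start upstream. The Npc1l1 stretch, chr11:6230246-6230495, and the Abca1 stretch, chr4:53159896-53160145, are the 250 bases before the start on the minus strand. Capitals mark exact matches of the searched motifs on either strand.
Abcg5-Abcg8 intergenic: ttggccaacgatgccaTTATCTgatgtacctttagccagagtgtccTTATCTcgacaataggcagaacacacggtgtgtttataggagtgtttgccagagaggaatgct
Npc1l1 upstream: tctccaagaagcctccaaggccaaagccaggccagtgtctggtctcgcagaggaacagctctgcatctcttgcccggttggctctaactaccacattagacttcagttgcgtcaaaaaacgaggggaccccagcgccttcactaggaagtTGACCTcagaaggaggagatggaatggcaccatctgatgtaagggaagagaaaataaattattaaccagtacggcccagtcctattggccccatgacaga
Abca1 upstream: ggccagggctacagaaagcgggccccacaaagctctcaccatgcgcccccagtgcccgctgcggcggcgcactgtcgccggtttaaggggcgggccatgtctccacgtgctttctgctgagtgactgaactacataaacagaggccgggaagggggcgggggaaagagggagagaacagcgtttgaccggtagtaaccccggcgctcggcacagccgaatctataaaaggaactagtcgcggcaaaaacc

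The capitals between Abcg5 and Abcg8 are 2 copies of the GATA element AGATAA, read here as TTATCT, a motif added to the search after the sequence had been seen. Of all promoter stretches of 109 bases before a start, 3.98% held that element. The capitals upstream of Npc1l1 are 1 nuclear receptor hexamer AGGTCA, read as TGACCT, which 14% of all stretches of 250 bases held. The HNF4 element in its spellings CAAAGTCCA, CAAAGTTCA and CAAAGGTCA had 0 matches in the full windows of 300 bases of the 5 genes, and 1.33% of all such windows held one. The LXR element was searched only as 2 exact copies of AGGTCA 4 bases apart and had 0 matches (0.0152% of all windows). The sterol regulatory element core CACCCCAC also had 0 matches (2.87% of all windows). No match says only that these letters are not in these windows. Elements that differ from them by a letter or more were not searched and are not marked. The exact LXR letters are so rare that finding none says nothing about LXR elements in other spellings.

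Npc1l1, the uptake transporter of the brush border, lay lower in every mutant. Its log2 signal was 11.44, 11.53 and 11.27 in mutants 1, 2 and 3, against 11.77, 11.97 and 11.87 in controls 1, 2 and 3. The groups did not overlap, and mutant 3 was the lowest array. The change was -0.46 ± 0.11 SE on the log2 scale, or 1.37-fold lower (95% interval -0.71 to -0.20, adjusted p = 0.154, not past the test). It has 1 probe set.

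Scarb1 encodes SR-BI, a receptor that takes up sterol from high-density lipoprotein in liver and is also present in enterocytes. Its log2 signal was 5.13, 5.71 and 5.25 in the mutants, against 5.27, 5.30 and 5.33 in the controls. Mutants 1 and 3 lay below and mutant 2 above all controls. The change was 0.06 ± 0.15 SE (95% interval -0.29 to 0.41, adjusted p = 0.927), and the other probe sets differed by -0.16 and 0.10. That interval holds both increases and decreases, so the direction of a change was not determined with these arrays.

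For the luminal exporter, Abcg8 lay lower in every mutant while Abcg5 overlapped between the groups. Abcg8 had log2 signals of 7.65, 7.54 and 6.64 in mutants 1, 2 and 3, against 7.95, 8.30 and 8.02 in controls 1, 2 and 3. All mutants lay below all controls, and mutant 3 stood apart below the other mutants. The change was -0.81 ± 0.25 SE, or 1.76-fold lower (95% interval -1.40 to -0.23, adjusted p = 0.253, not past the test), and -0.49 without mutant 3. Abcg5 had log2 signals of 10.26, 10.54 and 10.11 in the mutants, against 10.28, 10.59 and 10.27 in the controls. Those values interleave, and the change was -0.08 ± 0.15 SE (95% interval -0.42 to 0.26, adjusted p = 0.891). Each gene has 1 probe set.

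The difference between Abcg8 and Abcg5 within an array is given as a description with no test, chosen after these values had been seen. It was -2.60, -3.00 and -3.47 in mutants 1, 2 and 3, against -2.33, -2.30 and -2.25 in controls 1, 2 and 3. The controls lay close together, with an SD of 0.04 (n = 3) beside 0.43 in the mutants (n = 3), and no mutant reached their range. The group means differed by -0.73, a value that ranged from -0.94 to -0.51 when each array was left out in turn, -0.51 being the value without mutant 3. Signals of different probe sets do not measure relative amounts of transcript, so the size of the difference within an array has no meaning of its own.

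**Figure D2:**
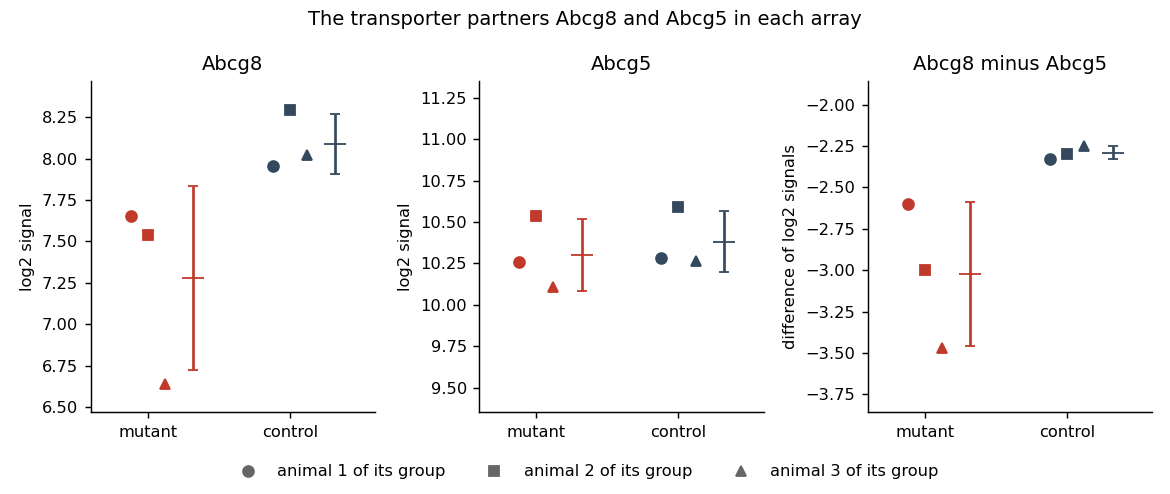
Log2 signal of Abcg8 (left) and Abcg5 (middle) and the difference between their log2 signals (right) in each of 3 mutant and 3 control arrays; marker shape gives the animal, and bars give the mean ± SD. The right panel shows controls between -2.33 and -2.25 and mutants between -3.47 and -2.60.

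Abca1, the basolateral exporter that loads cholesterol onto apolipoprotein A-I, had the lowest p of the 7 genes. Its log2 signal was 8.09, 8.24 and 7.34 in mutants 1, 2 and 3, against 9.04, 8.83 and 8.85 in controls 1, 2 and 3. The groups did not overlap, and mutant 3 was again the lowest. The change was -1.02 ± 0.22 SE, or 2.02-fold lower (95% interval -1.53 to -0.51, adjusted p = 0.113, not past the test), and -0.74 without mutant 3. The further Abca1 probe sets were dimmer, with mean log2 signals of 4.68 and 3.02, and the dimmest read under the median probe set of every array. They differed by -0.68 and -0.58, in the same direction, with overlapping groups.

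Abcg1, an exporter of cholesterol to high-density lipoprotein that is best known from macrophages, lay the other way. Its log2 signal was 5.14, 5.43 and 5.15 in mutants 1, 2 and 3, against 4.99, 4.63 and 4.65 in controls 1, 2 and 3. All mutants lay above all controls, with control 1 nearest to them. The change was 0.49 ± 0.14 SE, or 1.41-fold higher (95% interval 0.17 to 0.81, adjusted p = 0.21, not past the test). The other Abcg1 probe set differed by 0.03 with overlapping groups, and the mean of both probe sets by 0.26. The change thus rests on 1 of 2 probe sets.

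Nr1h3, the gene of LXRalpha, had log2 signals of 7.53, 7.37 and 6.88 in the mutants, against 7.15, 7.19 and 7.08 in the controls. Mutants 1 and 2 lay above the controls and mutant 3 below them. The change was 0.12 ± 0.17 SE (95% interval -0.26 to 0.50, adjusted p = 0.845).

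**Figure D3:**
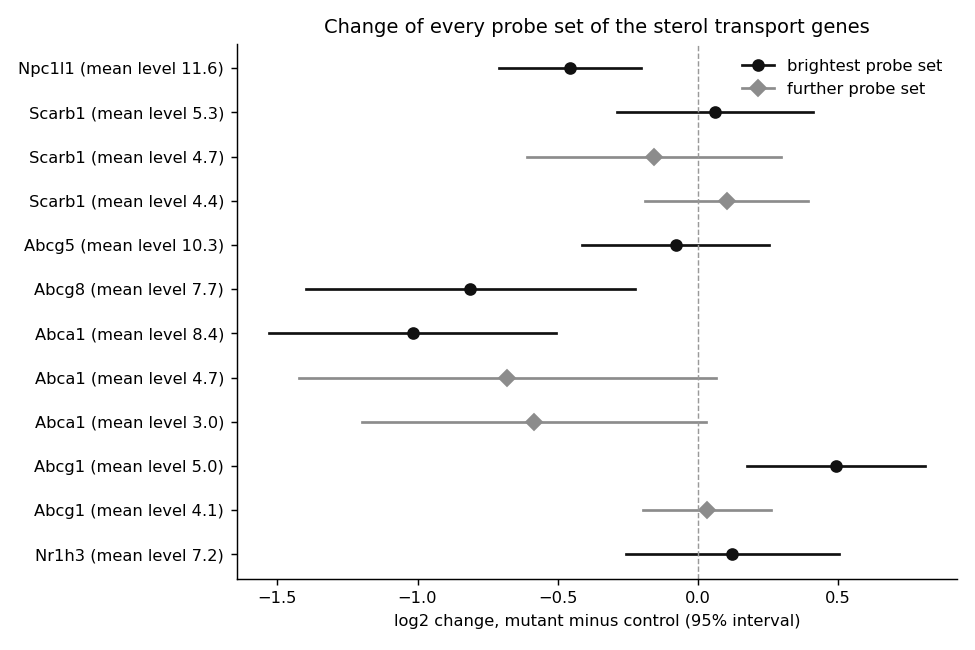
Log2 change, mutant minus control, with its 95% interval for all 12 probe sets of the 7 genes, fitted over all probe sets; black circles are the brightest probe set of each gene, grey diamonds the further ones, and the mean log2 level stands beside each name. The 3 Abca1 probe sets lie on the same side of 0, while the dimmer Abcg1 probe set lies near 0.

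Fitted over all probe sets, 0 of the 12 passed limma's test, where 0.193% of all probe sets did, and 4 of 12 had an unadjusted p under 0.05, where 9.69% of all probe sets did. Those 4 were the brightest probe sets of Abca1, Abcg1, Abcg8 and Npc1l1.

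Mutant 3 was the lowest of the 6 arrays for 5 of the 7 genes, namely Abca1, Abcg5, Abcg8, Npc1l1 and Nr1h3, whereas it was the lowest array for 21.9% of all genes. Because Abca1, Abcg8 and Npc1l1 lay lower in all mutants, their lowest array had to be a mutant. The share over all genes does not take that into account. Mutant 3 also stood apart in sterol synthesis. The mean log2 signal of the cholesterol synthesis list was 7.72, 7.76 and 8.39 in mutants 1, 2 and 3, against 7.85, 7.56 and 7.89 in controls 1, 2 and 3. Srebf2, the gene of SREBP-2, read 8.44 in mutant 3 and 7.38 and 7.39 in the other mutants, against 7.60, 6.97 and 7.33 in the controls. Srebf2 was picked after its values had been seen. Mutant 3 also had the lowest mean of the enterocyte marker list, 11.49. Whether the transporter, synthesis and enterocyte marker values of this animal are related was not tested.

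Genes of neighbouring pathways were taken from 5 lists with 75 measured genes, of which 1 fell and 0 rose (limma, adjusted p under 0.05), where 0.33% of all genes fell and 0.198% rose. In the LXR pathway list, 0 of 13 genes passed, and 1 had an unadjusted p under 0.05, where 12.1% of all genes did. The median change of the list was 0.22, which is the change of Lpl. Lpl read 7.68, 9.77 and 7.695 in mutants 1, 2 and 3. In controls 1, 2 and 3 it read 7.94, 8.22 and 8.33. Lpl, Scd1, Fasn and Acaca were each highest in mutant 2, the array with the fat transcripts given below. The part of fat in this median was not tested. In this list 3 genes lay lower and 1 lay higher in all mutants, where 10.2% and 6.93% of all genes did. Rxra, the receptor partner of LXRalpha, differed by -0.37 ± 0.15 SE and lay lower in all mutants. So did Lpcat3, a phospholipid-remodelling enzyme gene induced by LXR, at -0.28 ± 0.14 SE. Without mutant 3 these values were -0.23 and -0.13, and the mean of Rxra's probe sets differed by -0.16. Srebf1 was the remaining gene that lay lower in all mutants, at -0.18 ± 0.10 SE. Pltp, a phospholipid transfer protein gene, differed by 0.40 ± 0.20 SE (0.19 without mutant 1). Ncoa5, which lay higher in all mutants, differed by 0.23 ± 0.11 SE. The lipogenic LXR target Scd1, picked after its values had been seen, spread widely, at 8.995, 11.89 and 8.49 in mutants 1, 2 and 3, against 7.77, 9.27 and 10.07 in controls 1, 2 and 3.

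Among uptake partners and esterification genes, 1 of 9 passed. At an unadjusted p under 0.05, 4 were lower and 1 higher, where 6.85% of all genes were lower and 5.24% higher. The groups did not overlap for 3 lower genes and 1 higher gene, where this held for 10.2% and 6.93% of all genes. Lrp1, an endocytic lipoprotein receptor, had log2 signals of 7.99, 7.71 and 7.71 in mutants 1, 2 and 3, against 8.52, 8.58 and 8.48 in controls 1, 2 and 3. It fell by 0.72 ± 0.11 SE on the log2 scale (adjusted p = 0.0434). That call was lost in 11 of 16 alternative settings, with adjusted p up to 0.449, among them without mutant 2, mutant 3 or any control, while the log2 change lay between -0.82 and -0.52 and the unadjusted p stayed under 0.05 in all 16. Flot2, a flotillin gene, differed by 0.52 ± 0.12 SE (adjusted p = 0.129), and the mean of its probe sets by 0.31. Numb, an adaptor in NPC1L1 endocytosis, differed by -0.31 ± 0.11 SE and Pdzk1 by -0.45 ± 0.17 SE. Both lay lower in all mutants, as Lrp1 did. The fatty acid and lipoprotein receptor Cd36 differed by -0.80 ± 0.28 SE with overlapping groups. The list median was -0.45, but the list includes Cel, an enzyme gene of pancreatic acinar cells that read 6.52 in control 3 and at most 3.68 in the other arrays.

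For intracellular cholesterol transport, 0 of 19 genes passed and 5 had an unadjusted p under 0.05, 4 of them lower and 1 higher, where 6.85% of all genes were lower and 5.24% higher at that p, with a list median of 0.06. Osbpl1a, an oxysterol-binding protein family gene of late endosomes, had log2 signals of 5.59, 6.42 and 5.53 in mutants 1, 2 and 3, against 6.82, 6.95 and 6.95 in controls 1, 2 and 3. Its change of -1.06 ± 0.22 SE missed the threshold (adjusted p = 0.102) and passed without mutant 2 (log2 change -1.35, adjusted p = 0.0197). The sterol carrier genes Stard4 and Scp2 differed by -0.49 ± 0.13 SE and -0.41 ± 0.14 SE, and the lysosomal membrane gene Lamp1 by -0.37 ± 0.11 SE. All mutants lay below all controls for each of these 4 genes, and above them for 1 gene, Osbpl8 (0.44 ± 0.18 SE). Over all genes, 10.2% lay lower and 6.93% higher in all mutants.

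The SREBP-2 and cholesterol synthesis list had 0 of 21 genes past the test, 0 with an unadjusted p under 0.05 and a median of 0.16. Its lowest p values belonged to Fdft1 and Sqle, the genes of the first committed steps of sterol synthesis, at 0.54 ± 0.32 SE and 0.64 ± 0.39 SE, Pmvk at 0.31 ± 0.20 SE and Tm7sf2 at -0.22 ± 0.14 SE, all with overlapping groups. Without mutant 3 the values were 0.12 for Fdft1, 0.16 for Sqle and 0.12 for Pmvk. The mean of Fdft1's probe sets differed by 0.15. Of 13 chylomicron and HDL apolipoprotein genes, 0 passed and the median was -0.07. At an unadjusted p under 0.05, 2 were lower and 0 higher, where 6.85% of all genes were lower and 5.24% higher. The 2 lower genes were Apoc2 at -0.55 ± 0.20 SE and Apoc3 at -0.30 ± 0.12 SE. Pla2g12b differed by -0.16 ± 0.10 SE and the Apob editing enzyme gene Apobec1 by 0.29 ± 0.27 SE, which was 0.63 without mutant 1 and 0.013 without mutant 3.

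**Figure D4:**
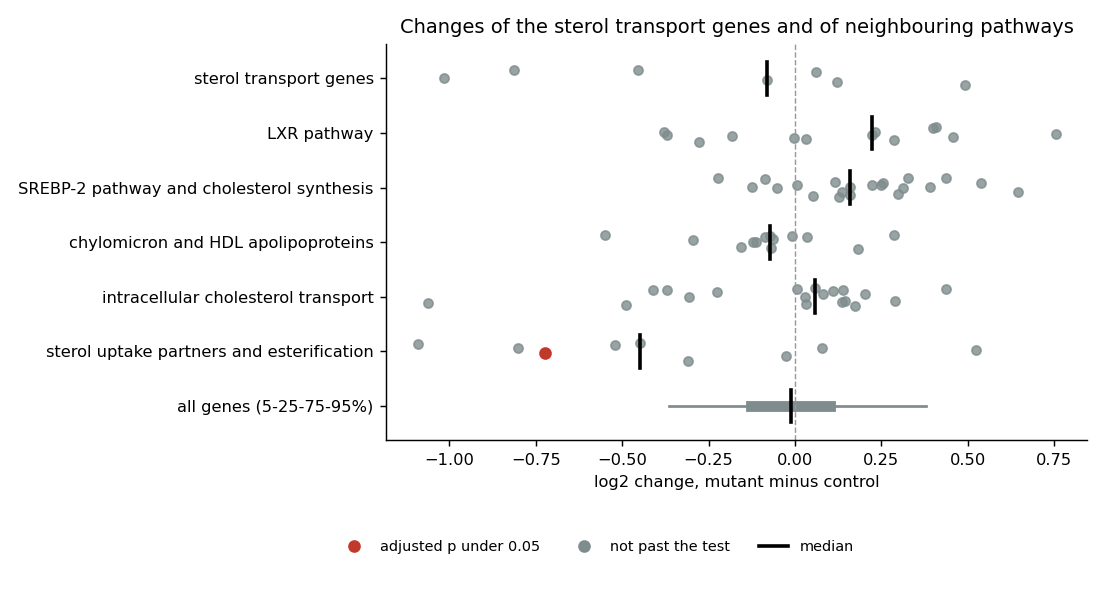
Log2 change, mutant minus control, of each measured gene in the sterol transport set and in 5 neighbouring lists (1 point per gene, spread vertically for visibility), with list medians as black bars and, in the lowest line, the 5th, 25th, 75th and 95th percentiles of all genes. The 1 red point is Lrp1 (adjusted p = 0.0434); Abca1 and Abcg8 are the leftmost sterol transport genes.

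The genes whose profiles over the 6 arrays were most like each transporter were found by the root mean square distance between mean-centred log2 profiles, among genes brighter than the median gene. Closest to Abca1 were Sowaha at a distance of 0.08 and Amacr, a racemase gene of branched fatty acid and bile acid metabolism, at 0.12. Closest to Abcg8 were the adaptor gene Gab1 at 0.05 and the glutamate transporter gene Slc1a1 at 0.09, and closest to Npc1l1 were Pcnx and Higd2a at 0.03 each. The nearest profiles to Abcg1 were Ccr9, a chemokine receptor gene of gut-homing lymphocytes, at 0.04 and Gng2 at 0.07. For Abcg5 they were 1810021B22Rik at 0.04 and Lrrc57 at 0.05, for Scarb1 Mnat1 at 0.04 and C1galt1c1 at 0.06, and for Nr1h3 Ssbp3 at 0.04 and Gtf2i at 0.05. With 6 arrays and 18193 genes close profiles are easily found, so these are descriptions only.

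Markers of other gut regions and cell types differed between the groups alongside some of these genes. Of all genes, 46.7% had a positive and 53.3% a negative change, and the counts of markers below stand beside those shares and the 6.93% of genes that lay higher and 10.2% that lay lower in all mutants. Of 6 measured ileum or colon markers, 6 had a positive change and 3 lay higher in all mutants, and the mean log2 signal of the list was 6.61, 6.89 and 7.15 in mutants 1, 2 and 3, against 6.40, 5.80 and 5.19 in controls 1, 2 and 3. Fabp6, the ileal bile acid binding protein gene, read 9.57, 10.03 and 9.80 in the mutants, against 9.15, 6.67 and 3.37 in the controls, the last under that array's median probe set. Hoxd10 and Car1 read under the median probe set of every array. Of 12 enterocyte markers, 10 had a negative change, 3 of them with mutants below all controls. The adhesion gene Cdh1 lay higher in all mutants (0.33 ± 0.10 SE). The enterocyte list mean read 11.74, 11.64 and 11.49 in mutants 1, 2 and 3, the last being the lowest of the 6 arrays. In controls 1, 2 and 3 it read 11.85, 11.80 and 11.83. Of 6 markers of the proximal small intestine, 5 had a negative change, 3 of them with mutants below all controls, and the list mean was 6.40, 6.30 and 5.95 in mutants 1, 2 and 3, against 6.26, 6.68 and 6.62 in controls 1, 2 and 3. The transcription factor gene Onecut2 was the only one past the test: it read 2.85, 3.04 and 2.91 in mutants 1, 2 and 3, against 3.73, 3.78 and 4.07 in controls 1, 2 and 3, under the median probe set of every array except control 3, and fell by 0.93 ± 0.12 SE on the log2 scale (adjusted p = 0.024). Gata4, a jejunal transcription factor gene, differed by -0.34 ± 0.10 SE (adjusted p = 0.22), and Cybrd1, a duodenal iron reductase gene, by 0.22 ± 0.32 SE. The part of gut region or enterocyte share in the differences of Npc1l1, Abcg8 and Abca1 was not tested.

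T cell markers were also set beside Abcg1, with list means of 7.02, 7.70 and 7.24 in mutants 1, 2 and 3, against 7.17, 5.90 and 6.51 in controls 1, 2 and 3. Of its 10 genes, 10 had a positive change, 2 with all mutants above all controls, and control 1 was the highest control on the list as it was for Abcg1. Macrophage and other myeloid markers, of which 10 of 13 had a positive change with 3 higher and 2 lower in all mutants, had list means from 6.73 to 7.10 in mutants and from 6.66 to 6.71 in controls. The lower genes were Lyz2, a lysozyme gene, at -0.35 ± 0.11 SE, and Marco, which read under the median probe set of every array. Of 7 B and plasma cell markers, 7 had a positive change and 1 lay higher in all mutants, with list means of 7.70, 7.53 and 8.01 in mutants 1, 2 and 3, against 7.92, 6.99 and 6.48 in controls 1, 2 and 3. The part of these cell types in the Abcg1 change was not tested. Mutant 2 carried fat transcripts (list mean 8.18, at most 6.76 elsewhere) and control 3 pancreatic acinar transcripts (list mean 8.13, at most 4.96 elsewhere). Without both arrays the change was -1.22 for Abca1, -0.98 for Abcg8, -0.51 for Npc1l1 and 0.34 for Abcg1.

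**Figure D5:**
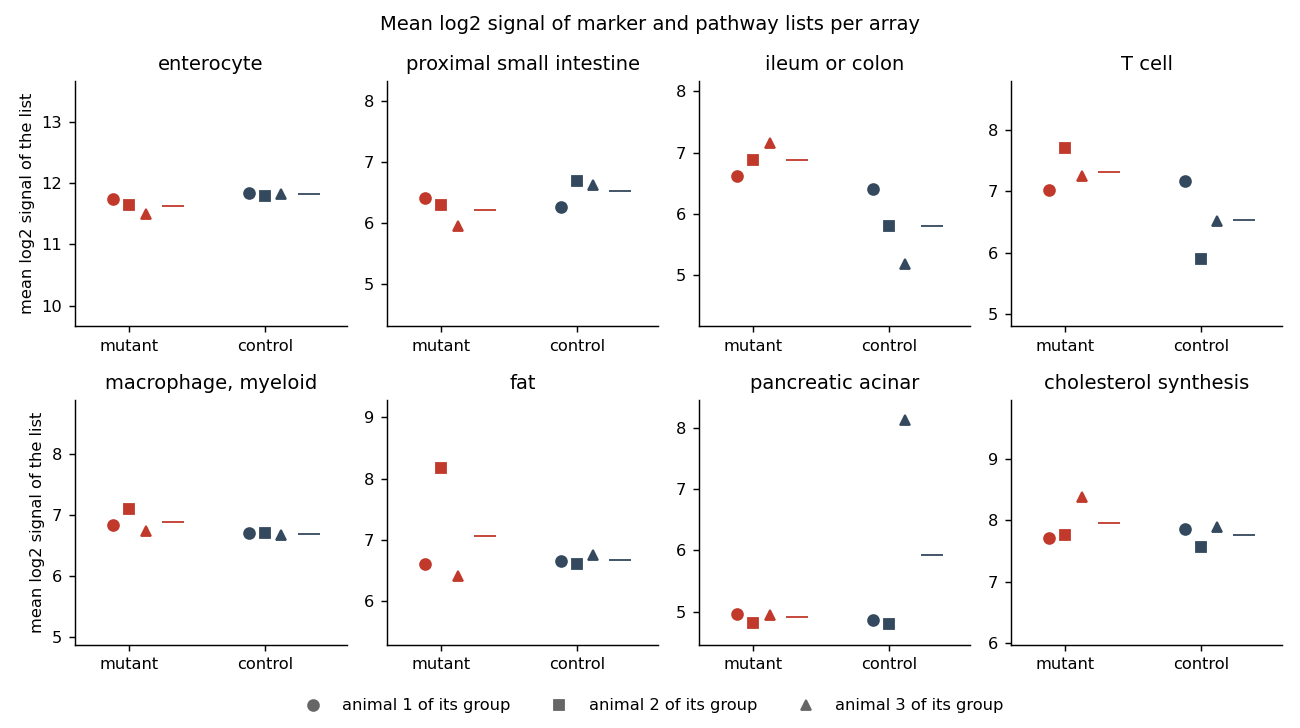
Mean log2 signal of 7 marker lists and the cholesterol synthesis list (vertical axis) in each array, mutants in red on the left and controls in dark blue on the right; marker shape gives the animal and the horizontal bar the group mean. The mean of the ileum or colon list lies higher in all mutants, though only 3 of its 6 markers do so singly. Fat transcripts stand out in mutant 2, acinar transcripts in control 3 and cholesterol synthesis in mutant 3.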

How the data were processed

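The authors deposited a log2 signal for each probe set on each array; the methods behind background correction, summarisation and normalisation: not given in the sources used here. Array medians lay between 3.93 and 3.98, so no further normalisation was applied. After 64 control probe sets were left out, 45037 remained, of which 34945 carry 1 symbol, 932 several and 9160 none in the platform annotation. Mutants were set against controls in limma 3.58.1 (R 4.3.3; lmFit, eBayes) with no covariate, two-sided, with Benjamini-Hochberg adjustment over 18193 genes and a threshold of 0.05, giving standard errors (SE) and 95% intervals. The number of arrays limits the precision. The procedure was tested on simulated data.

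The members, lists and tests were chosen with earlier results of these data known, so list counts are descriptions. The genes named are Hnf4a, the 7 measured members, each pathway list's genes past the test or else its 4 genes with the lowest p, the 2 genes most like each member whose SD exceeded the median gene, all 7 of them, and markers of other cell types that lay with a member. Flot2, Numb, Cd36, Pdzk1, Cel, Osbpl8, Srebf1, Srebf2, Scd1, Lpl, Fasn, Acaca and the markers singled out were chosen after their values were seen. Alternatives, 16 in number, covered normalisation, filters, probe set choice, variance models, the replicate block and left-out arrays. The Abcg8 minus Abcg5 difference and the GATA motif were added after the data had been seen. Promoter sequences are RefSeq's, GRCm38.p6.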

Additional observations from a re-analysis of the deposited data

How the results depend on the processing

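None of the 7 measured sterol transport genes passed limma's test in the reported fit or in any of 16 alternatives. Abca1, Abcg8, Npc1l1 and Abcg1 kept their direction in all 16, with log2 changes from -1.22 to -0.74, from -1.0002 to -0.49, from -0.52 to -0.37 and from 0.26 to 0.61. The 3 genes near 0 changed sign in places. With each array left out in turn, the change ranged from -0.20 to 0.026 for Abcg5, from -0.11 to 0.18 for Scarb1 and from -0.012 to 0.31 for Nr1h3, and Scarb1 was -0.16 with its most variable probe set and -0.10 without control 3 and mutant 2 together.

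The number of genes called over the whole array was 96, and 11 with a floor at the 20th percentile, 150 with array weights, 4 without control 3 and mutant 2 together, 248 at an adjusted p under 0.1, and 22 to 96 with each array left out. The Hnf4a call was lost with the floor (log2 change -2.56, adjusted p = 0.0615) and without control 3 and mutant 2 (log2 change -2.47, adjusted p = 0.205); with each array left out its change ranged from -2.89 to -2.39. The cause of these differences was not tested. With the replicate number as a block 62 genes were called and the log2 change of Abca1 stayed at -1.02 (adjusted p = 0.124). Whether same-numbered arrays share more than a number is not given in the labels. The correlations of their deviations were 0.06, -0.02 and -0.003 for numbers 1, 2 and 3. Of the 6 arrays, 2 correlated best with their own number, both of them number 1.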
